A study of Mus musculus and Homo sapiens with 83 samples.

Results

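The comparison is of single mouse embryonic stem cells (mESCs) after 9 days of undirected differentiation with those after 3 days. It uses the RNA libraries of 5 day 9 cells and 7 day 3 cells, 12 of the 42 RNA libraries among the 83 samples of the series, chosen by their titles. All 12 cells came from E14, an mESC line of the 129/Ola strain, and all had been taken off mouse embryonic fibroblast feeder cells and off leukaemia inhibitory factor (LIF) and plated on 0.1% gelatin with neither, so the days differ in time since withdrawal alone, as far as the labels say. RNA was measured by AMAR-seq, in which a cell is opened on a chip, its cytoplasmic RNA is moved off the nucleus by electrodes and full-length cDNA is made by a Smart-seq2 workflow. The labels name no separate cultures, so each day is 1 sample and no test between the days was possible. Day and library preparation cannot be told apart.

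LIF acts through its receptor and STAT3 to hold mESCs in the naive state, the ground state of the preimplantation epiblast. Once it is withdrawn, cells dismantle the naive programme, pass through an epiblast-like state and give rise to a mixture of germ-layer and extraembryonic-like cells. Undifferentiated mESCs run on glycolysis to a large part and transcribe some germ-cell genes at a low level, which DNA methylation and Polycomb complexes keep off in somatic cells.

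Levels are reads per 1000000 gene reads (CPM) of a library, leaving out the gene CT010467.1, handled here as ribosomal RNA. A day's level sums the reads of its cells. Differences are relative log2 ratios, that is log2 of (day 9 CPM + 1) over (day 3 CPM + 1), less the median over all genes measured, and a gene counted as higher or lower from a 2-fold relative ratio on. Over 15841 genes measured, with at least 20 reads over both days and a read in at least 2 libraries, 3745 (23.6%) were at least 2-fold higher at day 9 and 3558 (22.5%) at least 2-fold lower. Far fewer genes separated the days cell by cell: 182 (1.15%) were higher in every day 9 cell than in every day 3 cell, and 265 (1.67%) were lower in every one. Each list below is read against these 4 shares. A gene that reached 20 reads only through the day on which it is high had to differ, so counts over lists describe these libraries.

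After the ribosomal gene, which took 37.0% to 75.2% of gene reads at day 3 and 13% to 73.1% at day 9, the libraries held 1516731 to 6148411 reads on genes at day 3 and 1053225 to 7962995 at day 9. A count of 0 allows up to 0.488 to 1.98 CPM in a day 3 cell and 0.377 to 2.85 CPM in a day 9 cell. Day 3 cells resembled each other more (median Spearman correlation across genes 0.70 over 21 pairs) than day 9 cells did (0.60 over 10 pairs), and the median between the days was 0.58 over 35 pairs. At day 9, 3 libraries stood apart. Cell 1 was the shallowest, with 51.2% of its reads unaligned and only 4.06% of the day's reads, yet it showed the most genes at equal depth (17016 in 1000000 reads). Cell 3 held 30.7% of the day's reads and carried genes of the 2-cell-like state at a level no other cell approached. In cell 4, mitochondrially encoded genes took 17.4% of reads, against 0.914% to 5.24% in the other 11 cells. List results that move with single cells are given with and without them. Leaving out cells 1 and 3 together gave 3705 genes (25% of 14834) at least 2-fold higher and 3253 (21.9%) lower.

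A 0 in these tables is not always a sign that a gene is off. Sox2, which every mESC uses, was listed at 0 in all 24 mESC RNA libraries of the series, as were Cox4i1, a subunit of the respiratory chain, and B2m, the light chain of the class I antigen-presenting molecule. Around Cox4i1 on chromosome 8, 72 consecutive protein-coding genes, from Crispld2 to Galnt2, were all at 0, and around the mitotic checkpoint gene Bub3 on chromosome 7, 29 consecutive ones were, from Ate1 to Zranb1. Of the 685 genes on the lists used here, 47 were at 0 in all 24 libraries, 8 of them in the stretch around Cox4i1 (Gins2, Cox4i1, Foxf1, Foxc2, Slc7a5, Mvd, Cdt1 and Tubb3). These 2 stretches were noticed after the values were seen. No statement about absence is made for genes at 0 everywhere.

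**Figure D1:**
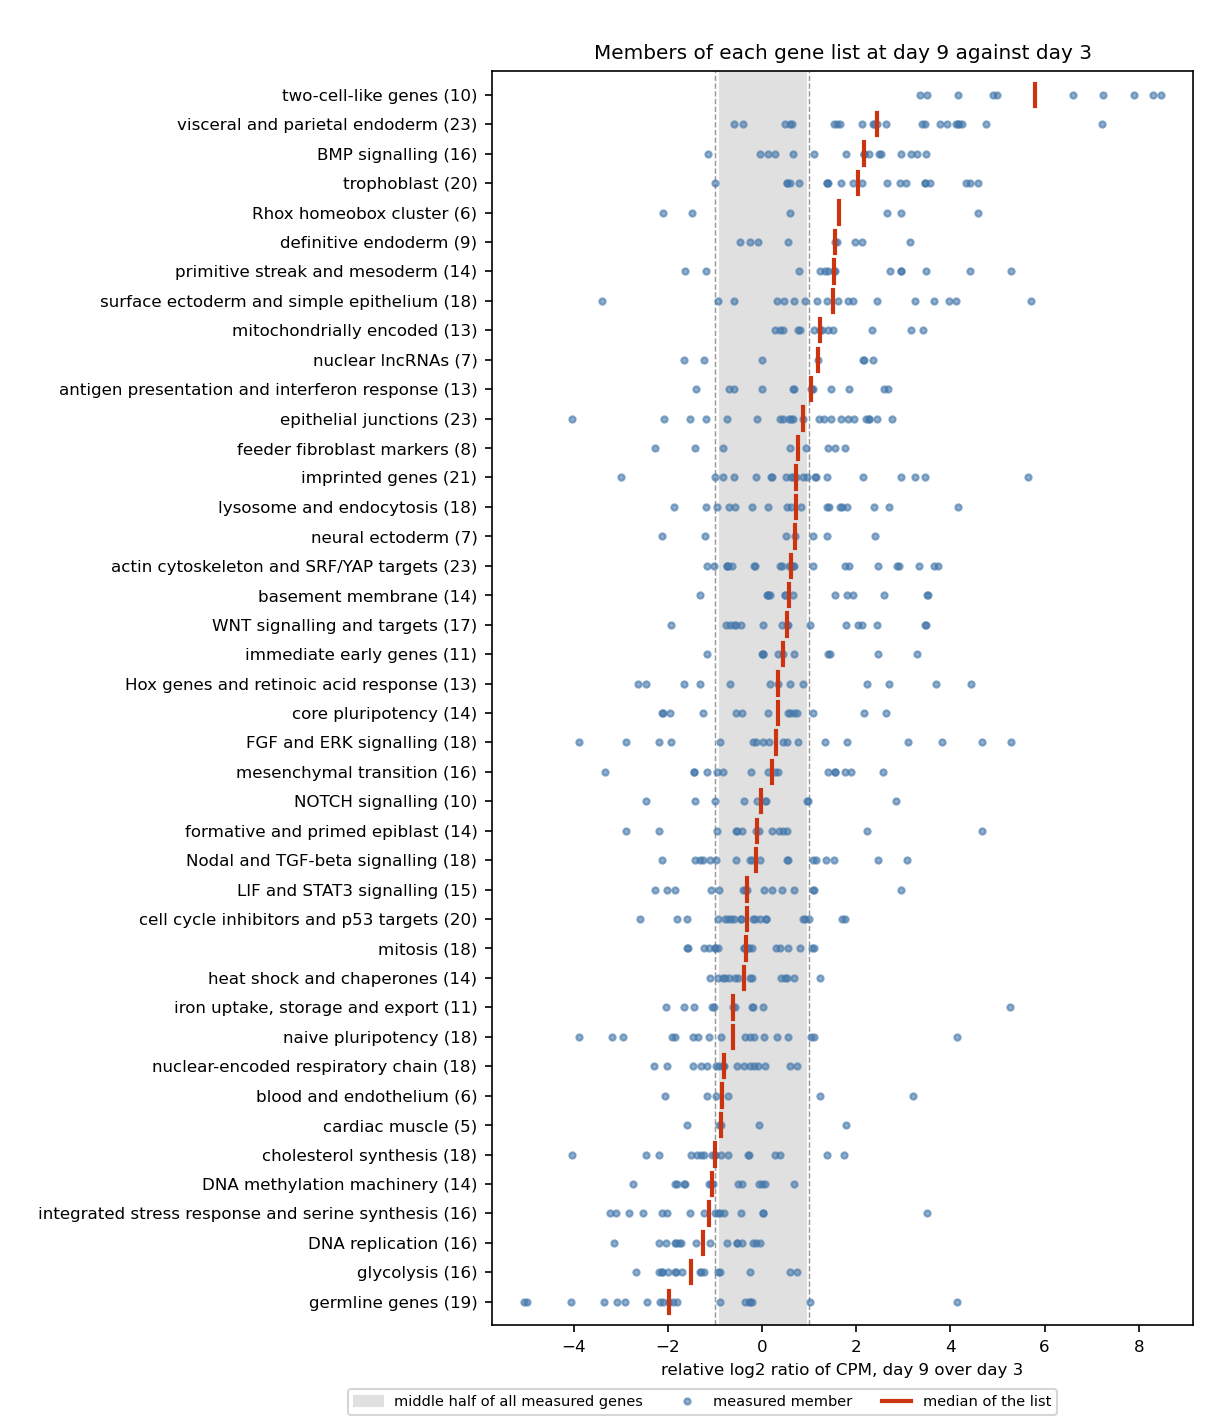
Relative log2 ratio of CPM at day 9 over day 3 (x axis) for each measured member (points) of 42 gene lists (y axis, number measured in brackets), with the list's median as a bar, dashed lines at a 2-fold ratio and a grey band from the lower to the upper quartile of all 15841 measured genes (-0.90 to 0.93). Germline genes, glycolysis and DNA replication lie lowest, and genes of the 2-cell-like state, visceral endoderm, BMP signalling and trophoblast lie highest.

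Glycolysis was the list with the most members that did not overlap between the days. Of its 16 measured genes, 11 were at least 2-fold lower at day 9 and 0 were higher, with a median of -1.51, and 9 were lower in every day 9 cell than in every day 3 cell. Summed over the list, the enzymes took 54641 to 76532 CPM in the day 3 cells and 11622 to 33564 CPM in the day 9 cells. Gapdh, which oxidises glyceraldehyde-3-phosphate, had 36414, 35471, 35927, 38245, 43514, 29099 and 38842 CPM in day 3 cells 1 to 7, and 5295, 10863, 7864, 8517 and 21687 CPM in day 9 cells 1 to 5. No day 9 cell reached the lowest day 3 cell, and cell 5 was the closest. For Eno1, which makes phosphoenolpyruvate, the day 3 cells had 9228, 10091, 10300.4, 11749, 12431, 8223 and 9333 CPM and the day 9 cells 1068, 2508, 3253, 1842 and 3138 CPM, a relative log2 ratio of -2.13 (-2.27 to -1.92 with any 1 cell left out). In CPM, though not on a log scale, the gap between the days was wider than either day's own spread. Day 9 cell 1 was lowest. Ldha, which turns pyruvate into lactate, ran from 7916 to 14856 CPM at day 3 and from 1950.2 to 4049 CPM at day 9, and Pkm, which makes pyruvate, from 2796 to 8164 and from 948 to 1530.1 CPM. Pfkp, a phosphofructokinase isoform at the committed step, had the lowest ratio of the list (-2.67), but its range at day 3 (123 to 704 CPM) met that at day 9 (28.6 to 190.3 CPM). The glucose transporters, which bring the substrate in, did not share this pattern: Slc2a1 had 343 CPM at day 3 and 672 CPM at day 9, and Slc2a3 452 and 801 CPM, both with overlapping cells and ratios short of 2-fold.

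The high level lay at day 3 rather than being that of undifferentiated cells. The 6 day 0 cells, grown on feeders with LIF, had 1407 CPM of Eno1 in sum and the 6 day 6 cells 6341 CPM, against 9949 at day 3 and 2687 at day 9. Gapdh went through the same order, with 7054, 36256, 19323 and 11937 CPM at days 0, 3, 6 and 9. So for these enzymes the day 9 sum was nearer to the day 0 sum than the day 3 sum was.

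Genes of one-carbon and amino acid supply were lower at day 9 too. Of 16 measured genes of the integrated stress response and serine synthesis, 9 were at least 2-fold lower and 1 higher (median -1.12), and 4 of the lower ones did not overlap between the days. Psat1, an aminotransferase of serine synthesis, had 437, 620.1, 566, 493, 610.4, 347 and 196 CPM in the day 3 cells and 74.1, 78.8, 83.1, 14.0 and 39.5 CPM in the day 9 cells. Every day 9 cell lay under every day 3 cell, cell 4 far under. Shmt2, which passes the carbon of serine to folate in mitochondria, had 163 to 362 CPM at day 3 and 24.7, 35.5, 0.251, 71.1 and 42.7 CPM in the day 9 cells, with cell 3 near 0. Slc3a2, the heavy chain shared by several amino acid transporters, ran 382 to 974 CPM at day 3 and 74.0 to 208 CPM at day 9. Atf4, the transcription factor of this response, had a ratio of -1.54 with overlapping cells (108 to 276 and 33.9 to 155 CPM). The 1 member that was higher, the cystine transporter subunit Slc7a11, had 9.49, 11.4, 0.502, 60.1 and 0.152 CPM in the day 9 cells and at most 1.44 CPM at day 3, and most of its day 9 reads came from cell 4.

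Genes of DNA replication were lower in a larger share of members than genes of mitosis. Of 16 measured replication genes, 9 were at least 2-fold lower and 0 higher, with a median of -1.26 that ran from -1.45 to -0.88 with any 1 cell left out. Mcm5, a subunit of the replicative helicase, had 194, 226, 135, 171, 180.1, 154 and 110.4 CPM in the day 3 cells and 51.3, 27.8, 1.76, 3.38 and 53.2 CPM in the day 9 cells. All day 9 cells were below all day 3 cells, and cells 3 and 4 held almost none. Mcm2, another subunit, had 103 to 297 CPM at day 3 and 48.2 to 94.3 CPM at day 9, again without overlap. Of 18 mitosis genes, 2 were at least 2-fold higher and 4 lower (median -0.34), with overlapping levels. That median was -0.94 without day 9 cell 3 and 0.02 without day 9 cell 2, and without cells 1 and 3 it was -0.83, with 1 higher and 5 lower. Top2a, the topoisomerase that untangles sister chromatids, had a ratio of -1.57, while the proliferation marker Mki67 had 1.06 and the kinetochore gene Cenpf 1.1. Mki67 ranged over 0 to 125 CPM at day 3 and 12.5 to 267 CPM at day 9, so its cells overlapped widely.

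Genes of the respiratory chain lie in both the mitochondrial and the nuclear genome. The 13 mitochondrially encoded genes had a median of 1.24, with 8 at least 2-fold higher at day 9 and 0 lower. Of these genes, 4 did not overlap between the days. Without day 9 cell 4 the median was 0.89, short of 2-fold. Of 18 nuclear-encoded subunits, 0 were at least 2-fold higher and 5 lower (median -0.82, and -0.52 without day 9 cell 2). That share is close to the 22.5% of all genes that were lower, and the median lies within the quartiles of all genes (-0.90 to 0.93). The mean level of each list, in log2(CPM + 1) over members, did not overlap between the days: 6.22 to 7.20 at day 3 and 7.83 to 9.48 at day 9 for the mitochondrial genome, and 8.30 to 8.62 and 7.79 to 7.98 for the nuclear genes. The summed CPM of the mitochondrially encoded genes did overlap, with 9141 to 35899 at day 3 and 28846 to 173937 at day 9. Within the mitochondrial genome the members were unequal. The complex I subunit mt-Nd1 had 2223, 2527, 2316, 2136, 1058, 904 and 1524 CPM in the day 3 cells and 7583, 13373, 7703, 43972 and 11087 CPM in the day 9 cells. Its lowest day 9 cell was above its highest day 3 cell, and cell 4 was highest. The complex III subunit mt-Cytb had a ratio of 3.42, but mt-Co1, of complex IV, had 0.28, which became -0.52 without day 9 cell 4. On the nuclear side, Atp5b, the catalytic subunit of ATP synthase, ran 3025 to 5247 CPM at day 3 and 557 to 1398 CPM at day 9.

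Cholesterol synthesis was lower in part of its members. Of 18 measured genes, 9 were at least 2-fold lower and 2 higher (median -1.0). Without day 9 cells 1 and 3, 5 of 18 were lower and 1 higher, with a median of -0.61. The share of all genes that were lower was then 21.9%, and 5 of 18 is not far above it. Msmo1, a sterol methyl oxidase, had 62.5 to 190.0 CPM at day 3 and 6.60 to 54.5 CPM at day 9 and was the only member without overlap between the days. Lss, lanosterol synthase, had 15.0, 0, 31.6, 23.8, 1.69, 51.7 and 26.7 CPM in the day 3 cells and 0.949, 0.456, 0, 0 and 2.27 CPM in the day 9 cells, where it was near 0 throughout.

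**Figure D2:**
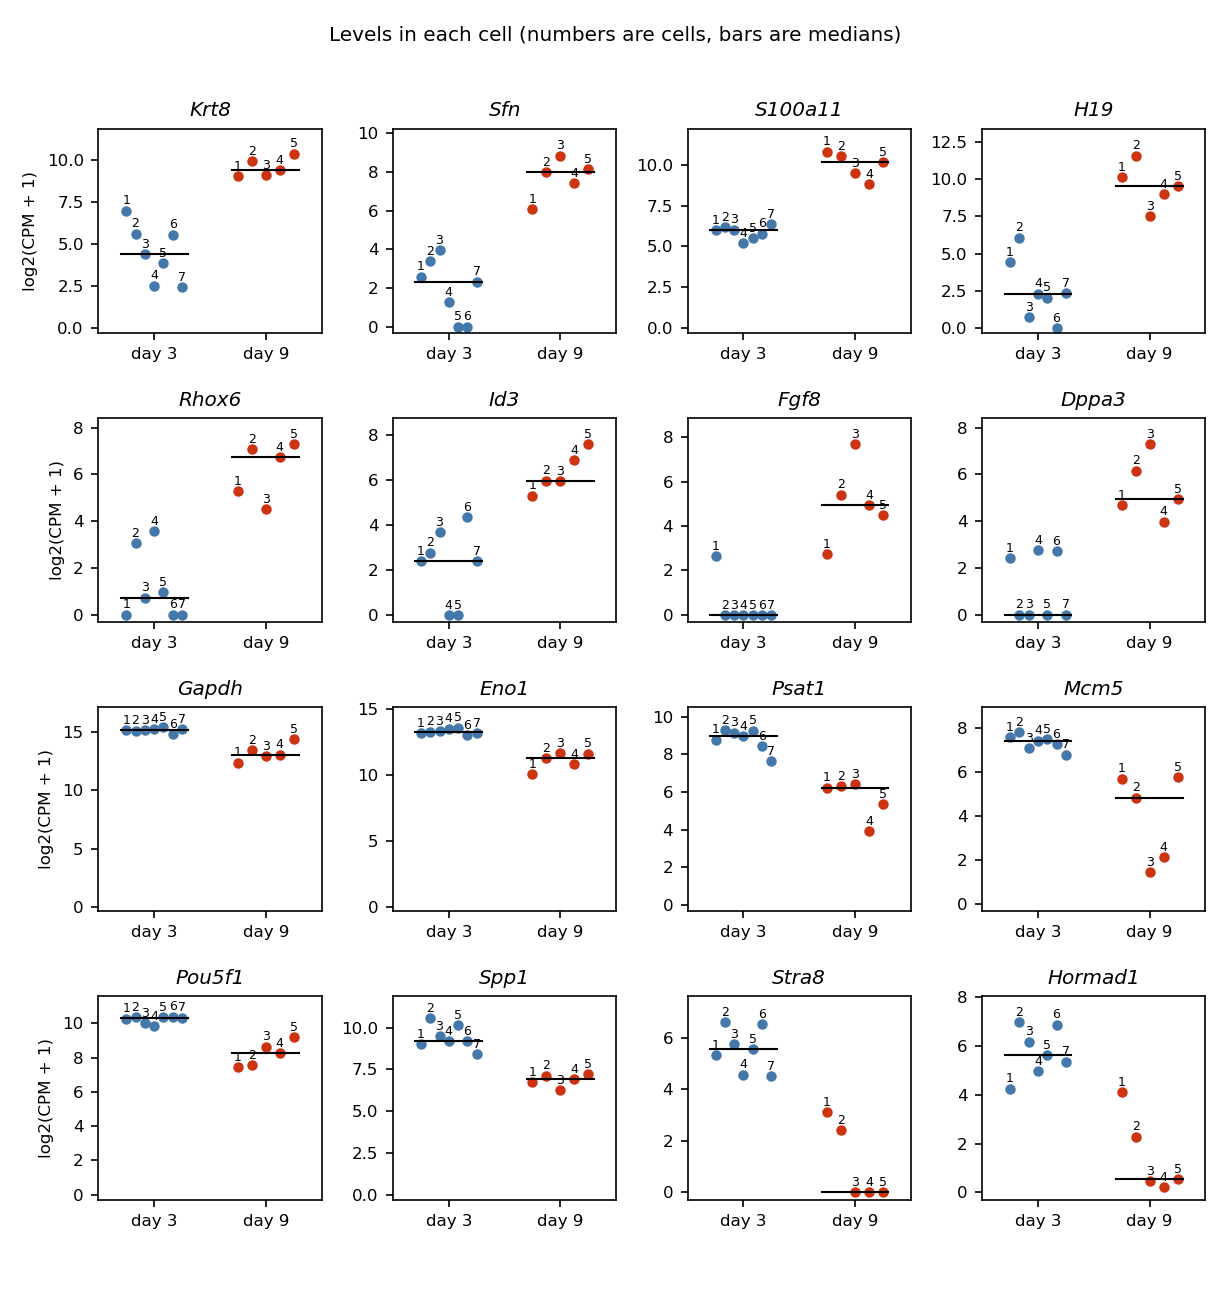
Level of 16 genes in log2(CPM + 1) (y axis) in each of the 7 day 3 cells and 5 day 9 cells (points, numbered by cell, with the median as a bar). In all 16 panels the cells of the 2 days do not overlap: the upper 8 genes are higher in the day 9 cells, and the lower 8 are lower.

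With all 5 day 9 cells, the core pluripotency list as a whole was close to all genes, though single members separated the days. Of the 14 measured core genes, 4 (28.6%) were at least 2-fold lower and 3 (21.4%) higher (median 0.33). Over all genes these shares were 22.5% and 23.6%. Without day 9 cells 1 and 3, 6 were lower and 2 higher, with a median of -0.40. Pou5f1, the OCT4 gene at the centre of the network, had 1244, 1333, 1024, 909.6, 1329, 1345 and 1294 CPM in the day 3 cells and 172, 189.8, 399, 306 and 592 CPM in the day 9 cells. Every day 9 cell kept a clear level of it, yet none reached the lowest day 3 cell. Its CPM ratio of day 3 over day 9 was 3.28 (95% counting interval 3.21 to 3.36), an interval for counting error alone. Utf1, a chromatin factor of pluripotent cells, had 248 to 778 CPM at day 3 and 31.3 to 191 CPM at day 9, without overlap. Tdgf1, a co-receptor for Nodal, had 174, 165, 786, 67.2 and 69.9 CPM in the day 9 cells against 576 to 1991 CPM at day 3, and cell 3 alone lay within the day 3 range. Without that cell the ratio went from -2.14 to -3.74. Nanog and Zfp42 (Rex1), markers of the undifferentiated state, had ratios of 0.13 and 0.54. Nanog ranged over 5.17 to 65.8 CPM at day 3 and 22.7 to 91.1 CPM at day 9, so it did not separate the days. Sall4, a zinc-finger partner of OCT4, had 112, 49.7, 2315, 178 and 63.9 CPM in the day 9 cells, so its ratio of 2.64 came from cell 3 and was -0.26 without it. Trim71, a ubiquitin ligase and RNA-binding regulator of stem cells, was higher in 4 of the 5 day 9 cells (68.4, 118, 4.27, 119 and 120.2 CPM) than in any day 3 cell (7.98 to 25.1 CPM), and low in cell 3.

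Among 18 measured genes of the naive state, 8 were at least 2-fold lower and 3 higher (median -0.62). The median was -1.15 without day 9 cell 3, and -1.29 without cells 1 and 3, where 9 of 16 were lower and 2 higher. Spp1, the secreted phosphoprotein osteopontin, had 514, 1532, 720.0, 589.7, 1121, 579 and 343 CPM in the day 3 cells and 105, 139, 75.7, 121 and 146 CPM in the day 9 cells. The day 9 cells were close to each other and all below day 3. Fgf4, the growth factor by which mESCs drive their own exit from the naive state, had 104, 146, 102, 121, 10.9, 10.4 and 13.7 CPM in the day 3 cells and 25.6, 1.60, 4.14, 0 and 5.61 CPM in the day 9 cells, and Tcl1, a coactivator of AKT, had a ratio of -3.19, against -3.89 for Fgf4. Both had overlapping cells, since day 3 itself was uneven for Fgf4, with cells 5 to 7 far under cells 1 to 4. Esrrb, a nuclear receptor of the naive state, did not separate the days (16.4 to 100.1 and 12.9 to 121 CPM). Dppa3 (Stella), a maternal factor that protects the methylation of early genomes, went against the list. It had 4.29, 0, 0, 5.76, 0, 5.53 and 0 CPM in the day 3 cells and 24.7, 70.9, 155, 14.7 and 29.7 CPM in the day 9 cells, with a ratio of 4.14 and no overlap.

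The formative list, of the state between naive and primed epiblast, stayed near the middle, with 2 of 14 measured genes at least 2-fold higher and 2 lower, and without day 9 cells 1 and 3 the counts were 1 higher and 4 lower of 13. Fgf5, the classic epiblast marker, had no read in any day 3 cell and 34.2, 0.911, 25.7, 78.0 and 7.42 CPM in the day 9 cells. Set against a floor of 3 reads over all of day 3 it was at least 265-fold higher in CPM. Otx2, an early factor of this state, was instead at 9.81 CPM at day 3 and 5.52 CPM at day 9, and its sum was highest at day 6 (189 CPM).

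Germline genes had the lowest median of all lists. Of 19 measured, 12 were at least 2-fold lower at day 9 and 2 higher (median -1.99, -2.18 to -1.61 with any 1 cell left out), and 3 of the lower ones did not overlap between the days. The higher ones were Dppa3 (4.14), which is on the naive list too and did not overlap either, and Sycp1 (1.01). Stra8, which licenses entry into meiosis, had 39.5, 96.0, 52.7, 22.7, 45.9, 91.7 and 21.8 CPM in the day 3 cells and 7.6, 4.33, 0, 0 and 0 CPM in the day 9 cells. All day 3 cells held it, and 3 of the 5 day 9 cells held no read. Hormad1, a protein of meiotic chromosome axes, had 18.1, 125, 71.2, 30.6, 48.6, 117 and 40.0 CPM in the day 3 cells and 16.1, 3.87, 0.377, 0.169 and 0.455 CPM in the day 9 cells, a relative log2 ratio of -4.99. Its day 9 cell 1 came near the lowest day 3 cell, and cells 3, 4 and 5 were under 1 CPM. Mael, of the piRNA pathway that silences transposons, had 19.2 to 141 CPM at day 3 and 31.3, 0, 0, 2.54 and 9.70 CPM in the day 9 cells, where cell 1 overlapped with day 3. Rhox13, an X-linked homeobox gene of germ cells, had 25.9 to 62.1 CPM at day 3 and 0.758 to 23.1 CPM at day 9, without overlap. Dazl, an RNA-binding protein of germ cells, was uneven at day 3, with 24.5, 77.0, 0, 16.6, 3.38, 14.5 and 62.5 CPM in the 7 cells, and had a ratio of -2.44. Ddx4 (Vasa), a germ-cell helicase, was as uneven, with 11.9, 0, 1.98, 1.44, 3.63, 29.0 and 53.5 CPM, and had a ratio of -2.17. By the median over cells in place of the sum, Ddx4 was at 0.12.

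In mESCs, a Polycomb complex that contains MGA and MAX represses many germline genes, and this pair binds the E-box letters CACGTG, so the promoters of the germline genes were searched for them. Promoters were the RefSeq windows of 250 bases before to 50 after the start site (GRCm38.p6), and CACGTG reads the same on both strands. Of the 14 measured germline genes with a window, 6 held it (42.9%: Ddx4, Hormad1, Mael, Stk31, Sycp1 and Taf7l), against 11.3% of the 11239 measured genes with a window and 7.15% of all 32851 windows. Of the 10 with a window that were at least 2-fold lower, 5 held it, a group chosen after its values were seen. Sycp1, the other holder, was instead at least 2-fold higher (1.01). The 4 sequences below are those of Hormad1, Mael and Ddx4, which hold the letters, and of Stra8, with the lowest ratio of the list, which does not. Capitals mark CACGTG, with its first base at -57 and -20 from the start site in Hormad1 (chr3:95559427-95559726, plus strand), at -223 in Mael (chr1:166238695-166238994, minus strand) and at -29 in Ddx4 (chr13:112652261-112652560, minus strand), while the Stra8 window is chr6:34920698-34920997, plus strand.
Hormad1: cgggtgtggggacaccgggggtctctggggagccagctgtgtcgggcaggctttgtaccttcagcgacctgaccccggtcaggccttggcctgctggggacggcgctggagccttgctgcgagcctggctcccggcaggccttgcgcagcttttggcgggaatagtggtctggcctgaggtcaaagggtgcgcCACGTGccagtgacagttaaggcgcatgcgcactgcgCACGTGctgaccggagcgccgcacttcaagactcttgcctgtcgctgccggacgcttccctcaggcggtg
Mael: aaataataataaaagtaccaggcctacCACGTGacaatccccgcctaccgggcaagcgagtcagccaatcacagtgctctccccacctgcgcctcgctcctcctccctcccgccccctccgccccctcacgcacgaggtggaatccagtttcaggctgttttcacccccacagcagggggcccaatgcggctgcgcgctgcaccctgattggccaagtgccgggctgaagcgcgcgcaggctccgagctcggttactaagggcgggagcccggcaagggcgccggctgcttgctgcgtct
Ddx4: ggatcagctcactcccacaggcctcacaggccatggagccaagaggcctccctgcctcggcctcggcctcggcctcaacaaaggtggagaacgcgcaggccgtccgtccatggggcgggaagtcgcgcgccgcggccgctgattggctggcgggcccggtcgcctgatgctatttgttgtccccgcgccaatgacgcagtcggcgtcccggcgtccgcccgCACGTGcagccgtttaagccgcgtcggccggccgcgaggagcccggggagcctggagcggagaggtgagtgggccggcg
Stra8: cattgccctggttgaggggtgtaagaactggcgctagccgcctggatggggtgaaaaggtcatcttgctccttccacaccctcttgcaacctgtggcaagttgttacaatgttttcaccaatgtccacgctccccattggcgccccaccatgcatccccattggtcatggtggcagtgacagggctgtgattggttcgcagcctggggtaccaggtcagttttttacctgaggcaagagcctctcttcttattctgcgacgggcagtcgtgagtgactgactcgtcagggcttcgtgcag
Beside the values above, Hormad1 and Stra8 were low at day 9 alike, with and without a match in this window. The other letters searched, on both strands, were less common in the windows of germline genes or close to their share among measured genes, but for those of the TATA box. A gene was counted where any of its windows held the letters. The TATA box letters TATAAA were in 21.4% of the germline genes with a window, against 9.4% of the measured genes with one. The TFAP2 letters GCCNNNGGC were in 14.3% and 27.9%, the GATA letters AGATAA in 7.14% and 8.15%, and the TEAD letters GGAATG in none and 14.8%. The octamer ATGCAAAT was in no window of these germline genes and in 1.62% of the measured genes.

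DNA methylation keeps many germline promoters closed in somatic cells, and the list of its machinery holds genes that set it and genes tied to its removal. Of 14 measured genes, 8 were at least 2-fold lower at day 9 and 0 higher (median -1.07). The lower ones came from both kinds. Tet2 (-1.13), Gadd45a (-1.05) and Gadd45b (-1.63), tied to removal, were among them, while Tet1 (-0.52), Tet3 (0.06) and Tdg (-0.01) were short of 2-fold. Dnmt3l, the cofactor of the de novo methyltransferases, had 503, 242, 329.7, 204, 330.2, 503 and 261 CPM in the day 3 cells and 119, 130.1, 160.1, 135 and 48.3 CPM in the day 9 cells, without overlap. Uhrf1, which brings the maintenance methyltransferase to replicated DNA, had a ratio of -1.84, and Dnmt1, that methyltransferase, -1.66, both with overlapping cells. The de novo enzymes Dnmt3a and Dnmt3b were at -0.42 and -0.07. For Dnmt3a, day 3 cell 6 alone had 651 CPM and the other 6 had at most 117 CPM, so without it the ratio was 0.78. Mbd4, a glycosylase that repairs deaminated methylcytosine and was not on the list, was among the lowest of all genes, with 8.46 to 74.5 CPM at day 3 and 0 to 1.90 CPM at day 9.

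Simple-epithelial genes were among those that lay highest above day 3. Of 18 measured genes of surface ectoderm and simple epithelium, 11 were at least 2-fold higher at day 9 and 1 lower (median 1.5), and the level of the list did not overlap between the days (1.34 to 3.36 at day 3, 3.81 to 4.84 at day 9). Krt8 (ENSMUSG00000049382.10, chr15:101996711-102004342 on GRCm38.p6 in RefSeq's annotation), a keratin of simple epithelia, had 126, 48.0, 19.8, 4.68, 13.3, 46.0 and 4.27 CPM in the day 3 cells and 535, 980.5, 554, 691 and 1348 CPM in the day 9 cells. Every day 9 cell had over 4 times the highest day 3 cell, and the CPM ratio was 20.8 (95% counting interval 19.6 to 22.1). Krt18 (ENSMUSG00000023043.7, chr15:102028216-102032026), the partner with which Krt8 forms filaments, had 159.8, 74.3, 67.9, 82.9, 37.2, 254 and 29.4 CPM in the day 3 cells and 609.6, 1361, 695, 1172 and 2206 CPM in the day 9 cells. The pair thus ordered the day 9 cells alike, with cell 5 highest and cells 1 and 3 lowest. Krt19 and Krt7, keratins of the same epithelia, had ratios of 3.96 and 1.93. Both overlapped between the days: Krt19 was at 79.5 CPM in day 3 cell 1 and 76.0 CPM in day 9 cell 1, and Krt7 was at 7.45 CPM in day 9 cell 4 and at 124 to 243 CPM in the other 4. Sfn, the 14-3-3 sigma protein of epithelia, had 5.00, 9.5, 14.5, 1.44, 0, 0 and 4.05 CPM in the day 3 cells and 65.5, 252, 457, 172 and 278 CPM in the day 9 cells, one of the largest gaps between the days. Grhl2, a transcription factor that sustains epithelial identity, had 0 to 3.60 CPM at day 3 and 19.9, 14.6, 88.7, 3.89 and 7.27 CPM in the day 9 cells, while its relative Grhl3 was the member that was lower (-3.41), with most of its day 3 reads in cell 6 (182 CPM).

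Junction genes divided. Of 23 measured, 11 were at least 2-fold higher and 4 lower (median 0.87, and 1.49 without day 9 cells 1 and 3). Cldn7, a claudin of tight junctions, had 0 to 42.9 CPM at day 3 and 44.6 to 238 CPM at day 9 and F11r, a junctional adhesion molecule, 49.9 to 98.9 and 148 to 225 CPM, both without overlap. Cldn6, an embryonic claudin, had a ratio of 2.75 and the desmosomal plaque gene Dsp 2.44, although Dsp was at 0.126 CPM in day 9 cell 3. Cdh1 (E-cadherin) and Epcam, which undifferentiated mESCs express as well, had ratios of 0.56 and -0.76, and Rab25, a trafficking GTPase of epithelia, -4.03. Genes of mesenchymal transition showed no such shift, with 6 of 16 at least 2-fold higher and 4 lower, and the intermediate filament gene Vim at -0.96. For this list, without day 9 cells 1 and 3 the counts were 4 higher and 2 lower of 15.

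Some genes of the cytoskeleton and its calcium-binding partners were higher in every day 9 cell than in every day 3 cell, while Actb was at a similar level. Of 23 measured cytoskeleton and SRF or YAP target genes, 9 were at least 2-fold higher and 2 lower, and 6 of the higher ones did not overlap between the days. These 6 were S100a11, S100a10, S100a6, Lgals1, Anxa3 and Tpm1, while their relatives Anxa2 (0.42), Tpm2 (0.39) and Tpm4 (0.69) were short of 2-fold. For the whole list, without day 9 cells 1 and 3 the counts were 11 higher and 0 lower of 23. S100a11, a calcium-binding protein, had 63.6, 72.1, 64.6, 35.7, 44.5, 53.8 and 82.7 CPM in the day 3 cells and 1813, 1521, 734, 456 and 1174 CPM in the day 9 cells. Its day 3 cells were close together, and its lowest day 9 cell was over 5 times the highest of them. Its relative S100a6 had 19 to 129 CPM at day 3 and 279 to 1639 CPM at day 9, and Lgals1, the lectin galectin-1, 58.3 to 250.2 and 549 to 1849 CPM. Tpm1, a tropomyosin that lines actin filaments, had 74.2 to 195 CPM at day 3 and 520.3 to 1251 CPM at day 9. Actb, the main cytoplasmic actin, was at 10304 CPM at day 3 and 10802 CPM at day 9 (ratio -0.17). For the S100 genes and Lgals1, the day 0 sums lay between those of days 3 and 9 (455, 575 and 620.2 CPM for S100a11, S100a6 and Lgals1).

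**Figure D3:**
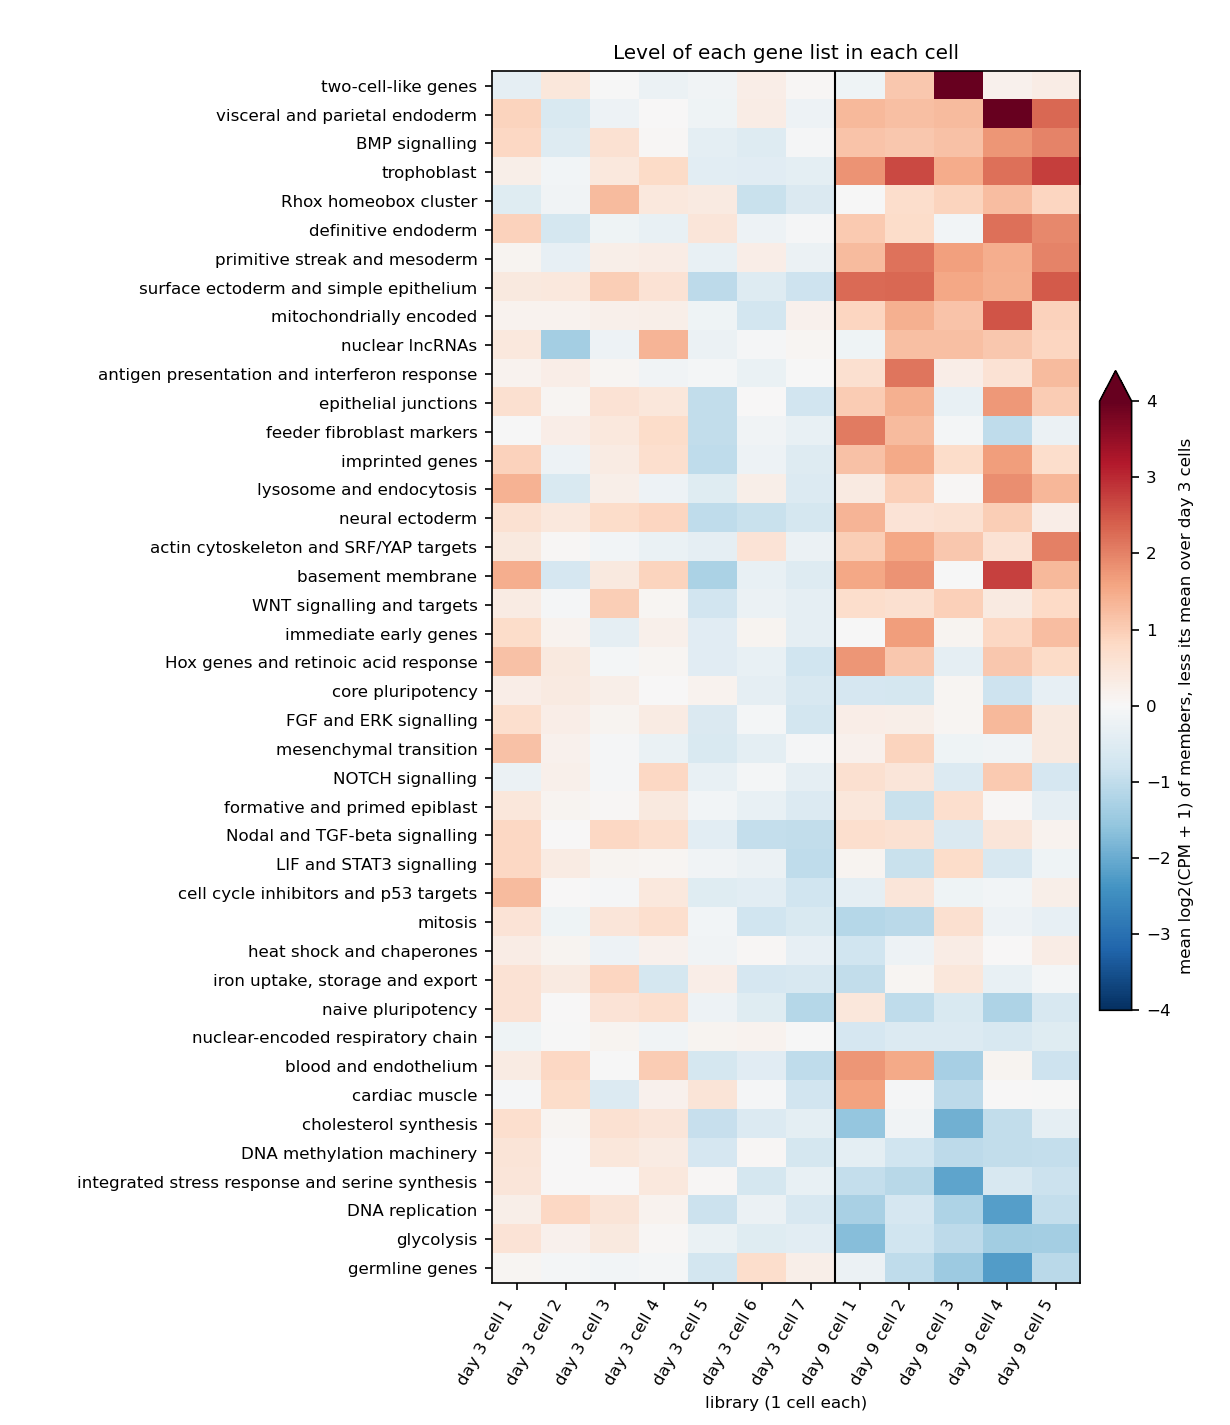
Mean log2(CPM + 1) of the measured members of each of 42 gene lists (rows, ordered by median ratio) in each of the 12 cells (columns), less the list's mean over the 7 day 3 cells; red is higher and blue lower, and the 2 darkest cells exceed the scale. The 2-cell-like list stands out in day 9 cell 3 alone and visceral and parietal endoderm most in day 9 cell 4, while glycolysis is blue and trophoblast red in all 5 day 9 cells.

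Trophoblast-associated genes, of the lineage that forms the placenta, were higher in 15 of 20 measured members by at least 2-fold and lower in 0 (median 2.03), and the list's level did not overlap between the days (1.76 to 3.00 and 3.73 to 5.00). A further 7 members were not measured (Elf5, Prl3d1, Prl2c2, Tpbpa, Psg17, Ctsq and Igf2), so the count of 15 does not cover these. Prl2c2, Tpbpa and Ctsq were at 0 in all 24 mESC RNA libraries. Among the measured members, Ascl2 (-0.99), Tfap2c (0.53), Tead4 (0.53) and Rhox5 (0.60) were short of 2-fold. Rhox6, a homeobox gene of placenta and germ cells, had 0, 7.31, 0.659, 10.8, 0.967, 0 and 0 CPM in the day 3 cells and 38, 135, 21.7, 106 and 155 CPM in the day 9 cells. No day 3 cell exceeded 11 CPM and no day 9 cell lay under 21 CPM. Peg10, a retrotransposon-derived gene that the placenta needs, had 0.976 to 51.4 CPM at day 3 and 76.2 to 366 CPM at day 9, and Cited2, a CBP/p300-binding coregulator, 0.967 to 60.5 and 62.5 to 397 CPM, both without overlap. Plac1, a placental surface protein, had 2 reads over all of day 3 and 2.85, 55.1, 25, 7.45 and 22.4 CPM in the day 9 cells. Hand1, a factor of trophoblast giant cells and extraembryonic mesoderm, was uneven at day 9 (0, 95.9, 3.01, 28.4 and 33.6 CPM), high in cells 2, 4 and 5 and without a read in cell 1. Gata3 and Gata2, trophoblast regulators shared with other lineages, were uneven as well. Gata3 had 38, 3.87, 10.8, 44.7 and 0.758 CPM in the day 9 cells, high in cells 1 and 4, and Gata2 had 2.85, 28.5, 0, 12.9 and 17.3 CPM, high in cells 2, 4 and 5. Cdx2 and Eomes, the regulators of early trophoblast that the streak and mesoderm also use, had relative log2 ratios of 0.79 and 1.40, from 1.04 and 4.86 CPM at day 9. Of the 6 measured genes of the Rhox cluster, 3 were at least 2-fold higher and 2 lower, and their median of 1.63 became -0.23 without day 9 cell 3. Some of these genes have near-identical copies, and the division of reads between them is uncertain.

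Imprinted genes, read from only 1 parental copy, include Peg10 of that group. Of 21 measured, 8 were at least 2-fold higher and 1 lower (median 0.72). Without day 9 cells 1 and 3, 13 were higher and 3 lower, with a median of 1.11. H19 (ENSMUSG00000000031.16, chr7:142575530-142578146), a maternally expressed long non-coding RNA, had 20.7, 66.5, 0.659, 3.96, 3.14, 0 and 4.05 CPM in the day 3 cells and 1144, 3058, 182, 505 and 736 CPM in the day 9 cells, a CPM ratio of 62.6 (95% counting interval 56.7 to 69.2). Day 9 cell 2 was the highest and cell 3 the lowest, still above all of day 3. Peg3, a paternally expressed zinc-finger gene, had 94.8, 76.7, 14.5, 24.1, 33.4, 162 and 9.44 CPM in the day 3 cells and 421, 544, 530.0, 1300.2 and 408 CPM in the day 9 cells, again without overlap. Cdkn1c, a maternally expressed cell-cycle inhibitor of the same chromosome as H19, was at -0.60, and Slc22a18, a transporter gene of the same imprinted region, was the member that was lower (-3.00).

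BMP signalling genes were higher from ligand to target. Of 16 measured, 11 were at least 2-fold higher and 1 lower (median 2.16), with list levels of 1.53 to 2.90 at day 3 and 3.14 to 4.05 at day 9. The ligand Bmp4 had 4.05, 0, 25.7, 3.24, 2.18, 5.69 and 16.2 CPM in the day 3 cells and 16.1, 63.6, 127, 34.4 and 38.3 CPM in the day 9 cells, and 4 of the 5 day 9 cells were above all of day 3. The type I receptor Bmpr1a had 0.163 to 28.1 CPM at day 3 and 30.5 to 189 CPM at day 9. Id1, Id2 and Id3 are direct targets and inhibitors of helix-loop-helix factors. Id3 had 4.29, 5.85, 11.9, 0, 0, 19.5 and 4.27 CPM in the day 3 cells and 38.9, 62.2, 61.5, 119 and 193 CPM in the day 9 cells, Id2 ran 11.2 to 162 CPM at day 3 and 210.3 to 977 CPM at day 9, and neither overlapped. Id1 had 43.7, 69.5, 97.1, 412 and 531 CPM in the day 9 cells, against 15.9 to 46.0 CPM at day 3, so cells 4 and 5 carried most of its ratio of 3.16. The signalling proteins Smad1 and Smad5 had ratios of -0.05 and 0.65, short of 2-fold, as were Smad6 (0.12) and Id4 (0.27). By the median over cells in place of the sum, the list's median was 0.84. Bambi, a decoy receptor and itself a target, was the member that was lower (-1.14).

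Primitive streak and mesoderm genes were present at day 9 at low levels. Of 14 measured, 11 were at least 2-fold higher and 2 lower (median 1.53), and the summed CPM of the list was 3.87 to 40.2 at day 3 and 90.2 to 384 at day 9. The 2 lower ones were the mesoderm factors Mesp1 (-1.19) and Mesp2 (-1.63), so the mesoderm part of the list did not move as 1. Fgf8, a growth factor of the streak, had reads in day 3 cell 1 alone (5.24 CPM) and 5.70, 41.5, 203, 29.8 and 21.4 CPM in the day 9 cells. T (Brachyury), the streak's defining factor, had no read at day 3 and 0, 23.5, 3.89, 0.169 and 6.06 CPM in the day 9 cells, of which only cell 2 passed 20 CPM. Mixl1, a homeobox gene of the streak, had no day 3 read either and 2.85, 0.228, 5.27, 23.7 and 3.79 CPM in the day 9 cells. The same was true of Wnt3, the ligand that starts the streak, with 0.949, 0.684, 28.9, 1.52 and 11.1 CPM. Mixl1 was highest in cell 4 and Wnt3 in cell 3, so no day 9 cell was high for T, Mixl1 and Wnt3 together.

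Endoderm genes were higher on the whole and concentrated in 1 cell. Of 23 measured genes of visceral and parietal endoderm, the extraembryonic endoderm that wraps the embryo, 18 were at least 2-fold higher and 0 lower. The median of 2.45 became 1.31 without day 9 cell 4. The list's mean log2(CPM + 1) was 3.09, 3.01, 3.06, 5.84 and 4.10 in day 9 cells 1 to 5 and 1.18 to 2.70 at day 3. By this measure all 5 cells were above day 3 and cell 4 was far above the other 4. The summed CPM of the list overlapped between the days, with 1068, 2210, 5656, 9363 and 5641 in day 9 cells 1 to 5. At day 3 it was 1773 to 3756, so day 9 cell 1 lay below all of day 3 and cell 2 within it. Ttr, the thyroid hormone carrier transthyretin, had no read at day 3 and 0, 36.7, 180.3, 479 and 19.4 CPM in the day 9 cells, at least 1602-fold higher in sum. Apoa1, an apolipoprotein that these cells secrete, had 0, 0, 0, 149.8 and 7.73 CPM in the day 9 cells and Afp, alpha-fetoprotein, 4.75, 0, 0, 90.5 and 2.58 CPM. Both were almost confined to cell 4, and their ratios of 4.12 and 4.25 became 0.81 and 0.91 without it. By the median over cells, Apoa1 was at -0.0163. Sox7, a factor of primitive endoderm, had 0, 14.6, 0, 70.9 and 25.2 CPM in the day 9 cells, again highest in cell 4. Cubn, the endocytic receptor cubilin, was in contrast spread over all 5 day 9 cells (35.1, 82.9, 150.4, 83.4 and 27.3 CPM) and above all of day 3 (0 to 9.27 CPM). Its partner Lrp2 (megalin) had 47.5, 425, 0.753, 209.7 and 53.9 CPM, high in cells 2 and 4. Parietal endoderm secretes basement membrane. Of 14 measured basement membrane genes, 6 were at least 2-fold higher and 1, Nid1 (-1.31), was lower (median 0.57). Others, such as Lama5 (0.17), Nid2 (0.12) and Hspg2 (0.48), were short of 2-fold. Lama1 (3.53) and Col4a1 (3.51) had the highest ratios of that list. Col4a1 had 0 to 13.3 CPM at day 3 and 27.5 to 86.0 CPM at day 9, without overlap. Lama1 had 1544, 346, 166, 503 and 66.5 CPM in the day 9 cells, highest in cell 1. The definitive endoderm list shares Gata4 and Gata6 with that of visceral and parietal endoderm. Its median of 1.55 over 9 measured genes became 0.49 without cell 4. The same cell 4 held the most mitochondrially encoded reads, and the part of that in these values was not tested.

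**Figure D4:**
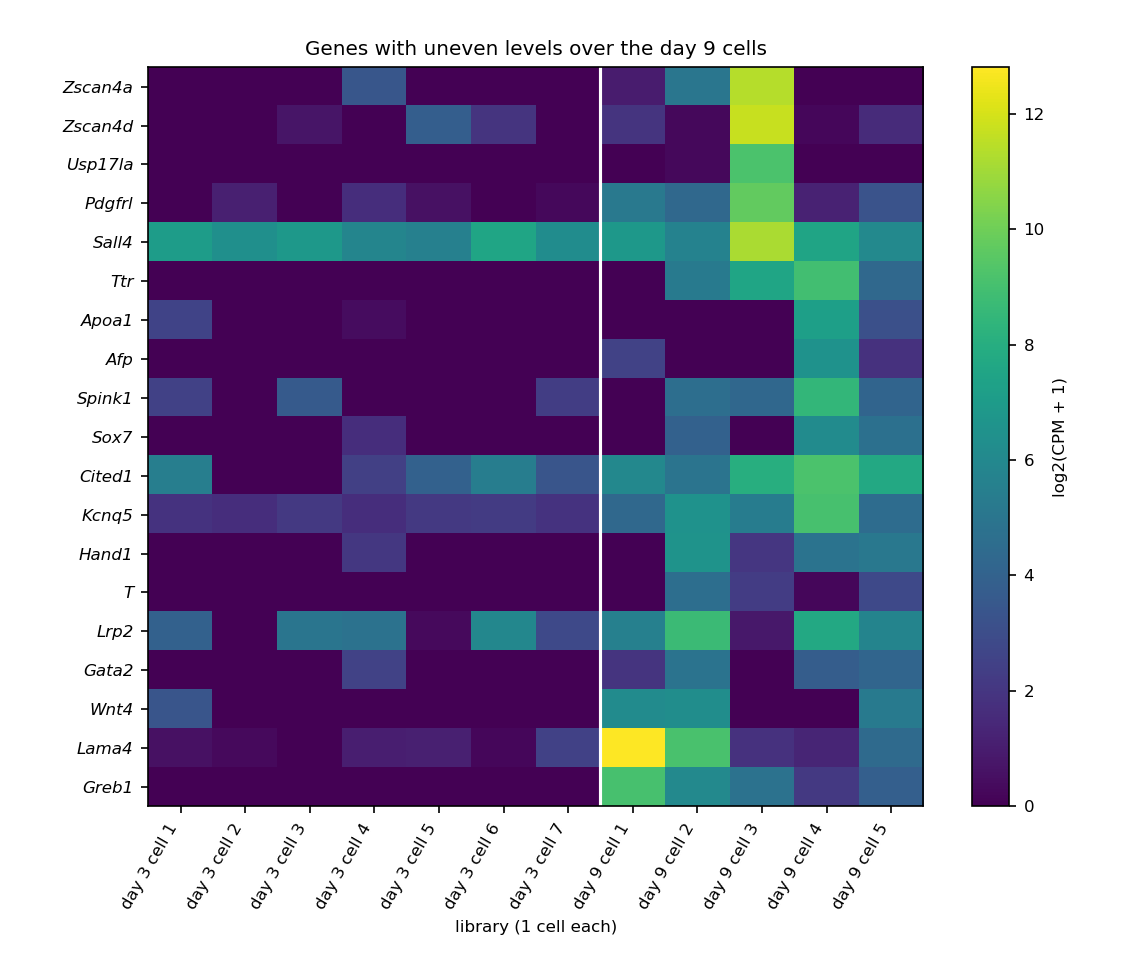
Level in log2(CPM + 1) (colour) of 19 genes (rows) in the 12 cells (columns), chosen for uneven levels over the day 9 cells. Zscan4a, Zscan4d, Usp17la, Pdgfrl and Sall4 are brightest in day 9 cell 3, Ttr, Apoa1, Afp, Spink1, Sox7, Cited1 and Kcnq5 in cell 4, Hand1, T and Lrp2 in cell 2, and Lama4 and Greb1 in cell 1.

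Day 9 cell 3 differed from all other cells in genes of the 2-cell-like state, the rare state of mESC cultures that resembles the 2-cell embryo. The 10 measured members summed to 10921 CPM in that cell and to 4.75 to 65.9 CPM in the other 4 day 9 cells, against 2.86 to 35.1 CPM at day 3. Zscan4d had 2.85, 0.228, 3341, 0.169 and 1.97 CPM in the day 9 cells and Zscan4a 0.949, 31.9, 2698, 0 and 0 CPM. The list's median of 5.79 became -0.33 without this cell, so it describes cell 3 and not the day. The Zscan4 and Usp17l copies are nearly identical, and how the authors' counting divides reads between them is uncertain. Cell 3 also had 2315 CPM of Sall4 and 859 CPM of Pdgfrl, a gene named for its likeness to the PDGF receptor, while Dsp (0.126 CPM), Shmt2 (0.251 CPM) and the collagen gene Col4a2 (0.126 CPM) were near 0 in it. Pou5f1 was 399 CPM in this cell, within the range of the other day 9 cells, and so were Krt8 and Krt18.

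Day 9 cell 1 had 7149 CPM of Lama4, a laminin chain of vessel and mesenchymal basement membrane, against 549.8 CPM in cell 2 and at most 20.2 CPM in the other 10 cells. Markers of fibroblasts, the cell type of the feeders, were highest in the same cells: their 8 measured members of 16 summed to 195 CPM in cell 1 and 140.4 CPM in cell 2, to 1.86 to 58.4 CPM in day 9 cells 3 to 5 and to 3.38 to 54.1 CPM at day 3, and Lum and Postn were at 0 in all 12 cells. The part of these in the result was not tested. Acta2, smooth muscle actin, and the long non-coding RNA host of a microRNA cluster, Mir17hg, divided the day 9 cells in another way: Acta2 had 0, 59.7, 96.3, 0 and 38 CPM and Mir17hg 0, 104, 0, 124 and 5.30 CPM. Wnt4, a ligand of kidney and gonad development, had 71.2, 76.3, 0, 0 and 38.3 CPM, high in cells 1, 2 and 5 and without a read in cells 3 and 4. Of the other genes with at least 50 CPM in 2 or more day 9 cells and no read in 2 or more, Lbh, a transcriptional coregulator, had 4.75, 0, 57.9, 68.0 and 0 CPM, Gabbr2, a GABA receptor subunit, 56.0, 67.0, 0.126, 0 and 0 CPM and Sec11c, of the signal peptidase, 37.0, 66.3, 0, 0 and 70.8 CPM. Wnt4 and Sec11c lacked reads in the same pair of cells, and the other 4 genes each in a pair of their own.

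Signalling genes of the self-renewal state and of exit from it went in both directions. Of 15 measured genes of LIF and STAT3 signalling, 3 (20%) were at least 2-fold higher and 4 (26.7%) lower (median -0.31). With all 5 day 9 cells these shares were close to the 23.6% and 22.5% of all genes. The list's median was -1.1 without day 9 cell 3 and 0.06 without cell 4. Without cells 1 and 3 it was -0.98, with 1 higher and 6 lower of 13. Il6st (gp130), the receptor subunit that passes on the LIF signal, had 49.8, 48.2, 7.91, 23.8, 27.1, 21.0 and 2.02 CPM in the day 3 cells and 12.3, 2.28, 0, 16.9 and 3.94 CPM in the day 9 cells, with a ratio of -2.28, and Stat3 itself had -1.85. Lif, the ligand, was higher in sum (0.0366 CPM at day 3 and 8.49 CPM at day 9), with 5.70, 0.456, 26.6, 0 and 0 CPM in the day 9 cells, most of it in cell 3. Of 18 FGF and ERK genes, 6 (33.3%) were at least 2-fold higher and 4 (22.2%) lower. The ligands differed, with Fgf4 and Fgf15 lower (-3.89 and -2.90) and Fgf5 and Fgf8 higher (4.68 and 5.28), and the feedback phosphatase Dusp6 had 0.949, 1.14, 488, 3.89 and 1.97 CPM in the day 9 cells against 0 to 38.2 CPM at day 3. The ratio of Dusp6 thus came from cell 3, going from 3.81 to -1.66 without it.

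Of 17 WNT genes, 7 were at least 2-fold higher and 1 lower (median 0.54), and without day 9 cells 1 and 3 the counts were 6 higher and 3 lower of 16. Sp5, a direct target, had no read at day 3 and 0.169 to 4.33 CPM at day 9, of which the lowest is within what a count of 0 allows. Axin2, another target and a brake on the pathway, had 2.85, 0, 57.5, 0 and 1.06 CPM in the day 9 cells against 0 to 4.68 CPM at day 3, so its ratio of 3.45 came from cell 3 and was -0.12 without it. Of 13 Hox and retinoic acid genes, 4 were at least 2-fold higher and 4 lower. Cyp26a1, which degrades retinoic acid, had 0, 0, 18.0, 85.0 and 26.5 CPM in the day 9 cells against 0 to 7.38 CPM at day 3. The retinoic acid-making enzyme gene Aldh1a2 and the binding protein gene Crabp1 were lower instead (-2.47 and -2.64), although Aldh1a2 had most of its day 3 reads in cell 2 and was at 0.02 without it.

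Markers of neural, blood and cardiac cells were measured in part. Of 19 neural ectoderm markers, 7 were measured, 3 at least 2-fold higher and 2 lower, and their sums ran 1.45 to 83.1 CPM at day 3 and 35.8 to 184 CPM at day 9. Of 16 blood and endothelium markers 6 were measured, with a median that ran from -1.16 to 0.30 with any 1 cell left out, and of 13 cardiac muscle markers 5 were, with a median from -1.21 to -0.17. With so few measured, these lists give no level for those cell types.

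Some of the largest differences were outside these lists. Nrk, an X-linked kinase of placenta, had no read at day 3 and 14.2, 110.1, 41.2, 158 and 47.7 CPM in the day 9 cells, at least 729.5-fold higher in CPM, and Fxyd2, the gamma subunit of the sodium pump, had 1 read over all of day 3 and 68.4, 165, 104, 36.7 and 44.2 CPM. Pmp22, a membrane protein of epithelia and myelin, had reads at day 3 in cell 3 alone (15.8 CPM) and 188, 277, 88.3, 32.5 and 154 CPM in the day 9 cells. Fgfbp1, a carrier that frees growth factors of the FGF family from matrix, had reads at day 3 in cell 4 alone (3.24 CPM) and 28.5, 64.7, 351, 50.8 and 113 CPM. All 4 were higher in every day 9 cell than in every day 3 cell. In the other direction, Calca, the gene of calcitonin, had 43.9 to 242 CPM at day 3 and 0 to 9.57 CPM at day 9, and the keratin gene Krt42 46.1 to 207 and 0 to 17.1 CPM, so a keratin was among the lowest genes as well. Mymx, a micropeptide of myoblast fusion, had 166 to 504 CPM at day 3 and 0 to 65.5 CPM at day 9, and Upp1, a uridine phosphorylase, 353 to 1707 and 44.6 to 102 CPM. None of these 4 overlapped between the days.

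These genes belong to the 12 highest and 12 lowest ratios that held without any 1 cell and to the 10 widest gaps between the days in each direction. Several of the other highest ratios leaned on single day 9 cells. Fkbpl, a gene of the FK506-binding protein family, had no read at day 3 and 0.949, 0, 209.7, 56.9 and 6.67 CPM in the day 9 cells, Usp17lb 0.949, 0.228, 521, 0 and 18.0 CPM and Arhgef26, a guanine nucleotide exchange factor, 27.5, 2.28, 179.7, 21.7 and 0.909 CPM. Cell 3 was highest for these 3, and their ratios without cells 1 and 3 were 4.45, 2.01 and 3.10, against 6.09, 6.23 and 5.69 with them. Amot, an angiomotin that restrains YAP, had 84.5, 88.0, 3.64, 399 and 43.8 CPM, and Kcnq5, a potassium channel, 19.0, 90.5, 40.9, 537 and 22.3 CPM. Both were highest in cell 4. Greb1, an oestrogen-induced gene, had 531, 63.6, 27.8, 3.38 and 13.6 CPM, highest in cell 1, and Efemp1, an extracellular matrix protein, 30.4, 12.3, 46.8, 5.58 and 18.6 CPM, and neither had a day 3 read. Anxa3, an annexin, had 0 to 21.1 CPM at day 3 and 104 to 203 CPM at day 9.

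Among the lowest, Hsd17b14, a steroid dehydrogenase, had 178 to 405 CPM at day 3 and 0.169 to 43.7 CPM at day 9, Aplp1, of the amyloid precursor family, 144 to 418 and 0.377 to 35.1 CPM, and Pla2g10, a secreted phospholipase, 44.1 to 293 and 0 to 38 CPM. Ppm1j, a protein phosphatase, had 21.7 to 89.7 CPM at day 3 and 0 to 3.03 CPM at day 9, and the GTP-binding protein gene Gtpbp1 18.3 to 49.8 and 3.55 to 5.70 CPM. All 5 were lower in every day 9 cell. Vsig2, an immunoglobulin-domain protein, had no read at day 9 and 0, 31.2, 0, 14.0, 6.29, 56.6 and 28.3 CPM in the day 3 cells, at least 211-fold lower in CPM, and Trim52 had 32.4, 32.4, 68.6, 31.3, 59.5, 0.163 and 11 CPM at day 3 and 0 to 5.70 CPM at day 9. Both overlapped between the days through a day 3 cell at or near 0.

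**Figure D5:**
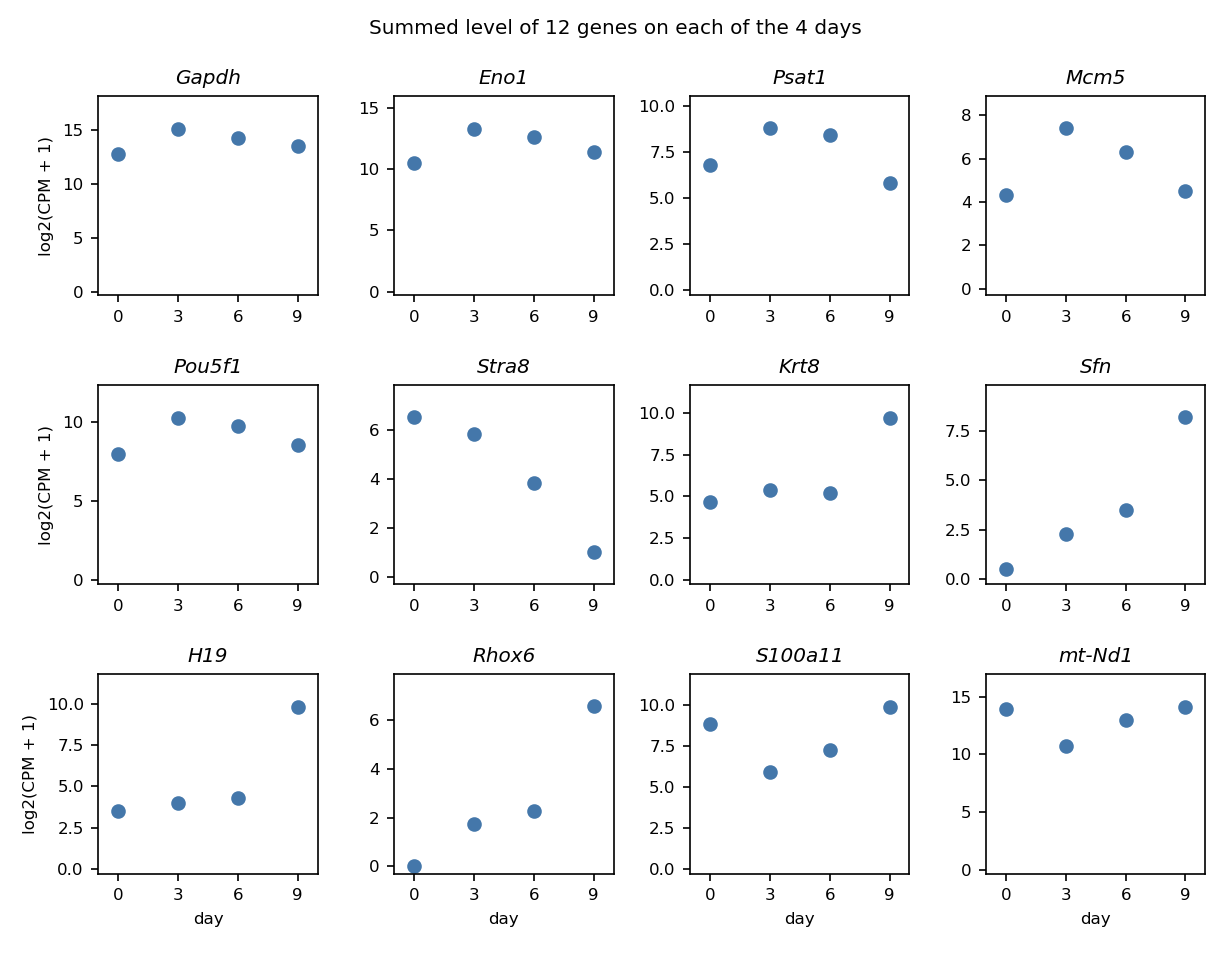
Summed level in log2(CPM + 1) (y axis) of 12 genes at days 0, 3, 6 and 9 (x axis; 6, 7, 6 and 5 cells, 1 point a day). Krt8, H19 and Rhox6 are close together at days 0, 3 and 6 and high at day 9, Stra8 is lower at each later day, and Gapdh, Eno1, Psat1, Mcm5 and Pou5f1 peak at day 3.

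The levels at day 6 place the difference in time for several genes. Krt8 was at 35.3 CPM at day 6, against 41.2 at day 3 and 859 at day 9, and H19 at 19 CPM, against 14.7 and 923. Rhox6 was at 3.77 CPM at day 6, 2.38 at day 3 and 94.8 at day 9. These day 6 sums were thus near day 3. Stra8 was at 13.5 CPM at day 6 and Hormad1 at 27.0 CPM, both between their sums at days 3 and 9. Mcm5 was at 77.1 CPM at day 6 and 19.2 CPM at day 0, where the day 0 sum was close to that of day 9 (21.6 CPM). Each day is a single sample here too.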

How the data were processed

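Each of the 12 files holds whole-number read counts per gene of 1 cell, deposited by the authors with closing lines for unassigned reads. Per the submitters' processing notes, Trim Galore 0.6.7, Bismark and Bowtie2 2.2.9 and the builds hg38 and mm10 were used in the series. Which of these served RNA is not stated, and neither are the counter, the annotation and the strand setting (not given in the sources used here), so overlapping genes cannot be told apart. Closing lines (22.0% to 60.5% of all reads) and CT010467.1 were left out of totals. Counts were summed per day and scaled to CPM with Python 3.11.15 and pandas 2.3.3, and 95% intervals were exact and cover counting error only. TMM factors (edgeR 4.0.16), DESeq2 1.42.0 size factors, other pseudocounts, minimum reads and summaries over cells, and leaving out cells were tried as alternatives. The ratio was tested on simulated counts. Gene names came from the deposited IDs matched to the reference table (55141 of 55401).

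The 42 lists hold 685 genes, 678 of them matched by name. Genes were named by 4 rules: the 12 highest and the 12 lowest ratios that held without any 1 cell, from 20 CPM in the day that is higher, the 10 widest gaps in each direction, up to 8 genes with at least 50 CPM in 2 day 9 cells and none in 2 (6 qualified), and the members with the largest ratios in each list. Other members were added to give roles their values. The comparison, lists and members were chosen with earlier results of these data known. A few genes that these rules name are not reported here. The 41 DNA methylation samples were not used here. No library repeated another.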

Additional observations from a re-analysis of the deposited data

Results flagged for a closer look

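In each group of 5 or 7 cells, the highest or lowest value was set against the others by Dixon's criterion, which chance meets in about 1 in 20 groups of normally distributed values. Of 406 groups tested, 54 met it, and no explanation was tested for any of them. A gene with reads in only 1 cell of its group meets the criterion whatever its level, so the 54 cannot be read against that share. Among library measures, day 3 cell 3 stood apart in unaligned reads (42.2%) and day 9 cell 4 in mitochondrially encoded reads (17.4%). Among list levels in log2(CPM + 1), day 9 cell 3 stood apart in 2-cell-like genes (8.76), day 9 cell 4 in FGF and ERK signalling (3.63), day 9 cell 1 in nuclear long non-coding RNAs (3.46, lower than the others), day 3 cell 6 in mitochondrially encoded genes (6.22, lower) and day 3 cell 1 in lysosome genes (6.79).

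Single genes at day 9, in CPM, came first from cell 3, which was high in Zscan4d (3341), Usp17la (580.1) and Dusp6 (488) and low in Trim71 (4.27), Shmt2 (0.251), Dsp (0.126) and Col4a2 (0.126). Cell 4 was high in Peg3 (1300) and low in Krt7 (7.45) and Sp5 (0.169). Cell 1 was low in Krt19 (76.0) and high in Rab25 (11.4), Trim52 (5.70) and Slc22a18 (3.80), which the other 4 cells held at lower levels. Cell 2 was high in Mcm2 (94.3) and Calca (9.57), and cell 5 was high in Cdx2 (3.94) and low in Dnmt3l (48.3).

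At day 3, single cells stood apart in these genes. Cell 1 had the outlying value for Amot (6.43), Apoa1 (5.00), Cyp26a1 (7.38), Fgf8 (5.24), Lif (0.238) and Wnt4 (9.29), and cell 2 for Aldh1a2 (40.9) and Arhgef26 (0.244). Cell 3 had it for F11r (98.9) and Pmp22 (15.8), and cell 4 for Axin2 (4.68), Fgfbp1 (3.24), Gata2 (4.68), Hand1 (3.24), Lbh (3.60), Slc7a11 (1.44), Sox7 (2.16), Zscan4a (9.73) and, at the low end, Rab25 (0.360). Cell 5 was high in Usp17lb (5.80) and low in Uhrf1 (25.1) and Mki67 (0), and cell 7 was high in Fxyd2 (0.225) and Plac1 (0.450). Cell 6 was high in Dnmt3a (651) and Gata3 (0.976) and low in Bmpr1a (0.163), Trim52 (0.163) and Otx2 (0).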

How the results depend on the processing

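Over 24 alternatives, 951 of 1001 list medians and 43 of 46 counts of genes stayed close to the reported value, and 3498 of 3596 ratios of single genes did. With a pseudocount of 10 CPM, 1641 genes were at least 2-fold higher and 960 lower, and medians were 0.41 for streak and mesoderm, 0.27 for definitive endoderm, 1.13 for trophoblast, 0.66 for surface ectoderm, -1.07 for germline genes and 0.75 for BMP signalling. With 0.1 CPM, streak, visceral endoderm and trophoblast were at 3.60, 3.97 and 2.91. At a minimum of 200 reads, 2281 genes were lower, and streak, trophoblast, surface ectoderm and Rhox medians were 3.48, 2.64, 2.43 and 2.64; at 1 read, Rhox was at 0.10. By the median over cells, definitive endoderm was at 2.52, visceral endoderm 1.00, trophoblast 3.01, 2-cell-like genes 0.66, Rhox 0.56 and BMP signalling 0.84, and Aldh1a2 (0.21), Apoa1 (-0.0163), Ctsh (-0.18), Ddx4 (0.12), Dusp6 (-0.55) and Usp17la (-0.0163) changed sign. Streak was at 1.12 with the ribosomal gene in the totals, at 1.91 by the mean over cells and at 2.98 with members at their bound, and trophoblast at 2.79 with members at their bound. Leaving out each cell in turn gave medians of 1.44 to 2.06 for streak, 0.49 to 1.98 for definitive endoderm, 1.80 to 2.60 for trophoblast, -0.33 to 6.34 for 2-cell-like genes and -0.23 to 1.93 for Rhox genes, and ratios of -2.80 to 0.0191 for Aldh1a2, -0.12 to 3.94 for Axin2, -1.66 to 5.04 for Dusp6, -0.26 to 3.07 for Sall4 and -1.06 to 8.96 for Zscan4d. Without day 9 cells 1 and 3, 2-cell-like genes were at -0.16 and Rhox genes at -0.17, and Axin2 (-0.16), Dusp6 (-1.52), Sall4 (-0.18) and Zscan4d (-1.04) changed sign. The causes were not tested. Scaling moved the median over all genes, which is subtracted, from 0.24 to between 0.01 and 0.64. No paired analysis was possible because the comparison comes from no test and the cell numbers only name cells. Depth limits low genes: values up to 2.85 CPM cannot be told from 0 in the shallowest cell.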

Other observations

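Genes of antigen presentation and the interferon response were higher at day 9 in 7 of 13 measured members and lower in 1 (median 1.04). Isg15, a ubiquitin-like protein that interferon induces, had no read at day 3 and 9.49, 2.96, 14.9, 3.22 and 1.06 CPM in the day 9 cells, and Ifitm1, a membrane protein that mESCs express, 152 to 503 CPM at day 3 and 559 to 2281 CPM at day 9. Ifitm1 separated the days in all 12 cells. Isg15 was highest in day 9 cell 3, and its value in cell 5 is within what a count of 0 allows in a day 3 cell (up to 1.98 CPM). The light-chain gene B2m cannot be read, since it was listed at 0 throughout.

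Of 11 measured iron genes, 5 were at least 2-fold lower and 1 higher. The higher one, Slc40a1 (ferroportin, which exports iron), had 2.16 CPM at day 3 and 0.949, 58.6, 371, 61.4 and 19.2 CPM in the day 9 cells, and its ratio of 5.27 was 3.56 without cell 3, which held the most. Of 18 lysosome and endocytosis genes, 8 were at least 2-fold higher and 2 lower. Beside Cubn and Lrp2, Ctsh, a lysosomal protease, had a ratio of 2.68 by the sums and of -0.18 by the median over cells. Cytoplasmic RNA should hold little of the nuclear long non-coding RNAs. Of 10 on the list, 7 were measured, and Xist and Kcnq1ot1 were at 0 in all 12 cells. Malat1 was not at 0, with 1124 to 8175 CPM at day 3 and 1377 to 10106 CPM at day 9. The part of nuclear RNAs in any difference between the days was not tested.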
